A study of Rattus norvegicus with 6 samples.

Results

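Acta2, Tagln and Vim are 3 cytoskeleton genes that are read together as a sign of contractile scar cells. They were chosen by their Ensembl gene IDs (ENSRNOG00000058039, ENSRNOG00000017628 and ENSRNOG00000018087), and the deposited table holds all 3 of them among its 22250 gene IDs. The data came from the achilles tendons of Sprague–Dawley rats, 6 weeks old at the start of the study, in which the midpoint of the tendon was transected and sutured at once. No treatment is described for the tendon injury model group (3 libraries). The celecoxib + lactoferrin treatment group (3 libraries) had the same injury and received daily injections at the site of injury of 10 mg/kg celecoxib, a drug that inhibits cyclooxygenase-2, and 2 g/kg lactoferrin, an iron-binding glycoprotein. Tissue of the injured site was taken on day 14 after surgery, and the sample labels enter this time as an age of 14 days. Uninjured tendons and tendons of rats given celecoxib alone were not analysed here, so the levels below can be set against neither a healthy tendon nor celecoxib by itself. Whether the injury model rats received injections of vehicle is not given in the sources used here. By the methods, 3 rats of each group were sacrificed on that day. The labels number 3 samples a group without tying each to a rat. The tests below therefore treat these libraries as independent units, each taken as 1 tendon.

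Acta2 encodes smooth muscle alpha-actin, which builds the stress fibres of a myofibroblast, the contractile fibroblast that pulls a wound together. Tagln encodes transgelin (SM22), a small protein that binds actin filaments in the same cells. Both genes are textbook targets of serum response factor, which binds CArG boxes in their promoters, and both are induced by transforming growth factor beta. Vim encodes vimentin, the intermediate filament of fibroblasts and other mesenchymal cells, and it is made by fibroblasts whether or not they have become contractile. None of the 3 genes belongs to 1 cell type: vascular smooth muscle and pericytes also make Acta2 and Tagln, and endothelial cells and leukocytes also make Vim.

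The sequence before the start site is shown for the members with an entry in the RefSeq promoter table (build GRCr8), because the shared control of Acta2 and Tagln through CArG boxes is the reason for reading them together. Acta2 and Vim had an entry, 2 of the 3 genes, and Tagln did not. The first line is chr1:241172504-241172753 on the minus strand and the second chr17:81577011-81577260 on the plus strand, both 5′ to 3′ and ending at the base before the start site. Capitals mark CArG-like boxes and the letters TATAA.
Acta2: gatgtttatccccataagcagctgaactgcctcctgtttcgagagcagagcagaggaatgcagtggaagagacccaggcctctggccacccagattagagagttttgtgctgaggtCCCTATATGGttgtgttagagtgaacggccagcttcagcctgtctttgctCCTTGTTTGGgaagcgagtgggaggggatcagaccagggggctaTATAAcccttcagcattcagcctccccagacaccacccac
Vim: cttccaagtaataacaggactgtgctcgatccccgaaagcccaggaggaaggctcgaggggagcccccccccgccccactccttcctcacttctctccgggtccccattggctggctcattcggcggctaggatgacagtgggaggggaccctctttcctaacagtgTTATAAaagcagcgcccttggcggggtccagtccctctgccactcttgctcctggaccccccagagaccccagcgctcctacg

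A CArG box is CC, then 6 bases that are A or T, then GG, and it was searched on both strands. The 250 bases before Acta2 held no strict match but 2 that differ from it by 1 base of the core, CCCTATATGG beginning 134 bases before the start site and CCTTGTTTGG beginning 84 bases before it. Of 33465 promoters of this length, 8.08% held at least 1 such match (strict ones included) and 0.693% held at least 2, while a strict match was in 1.5%. The stretch before Vim held no match of either kind. Acta2 also held the MCAT element GGAATG, 196 bases before its start site, which 12.1% of promoters held on either strand, and 1 E-box (CANNTG), which 65.5% held. Vim held a CCAAT box and a GC box (GGGCGG) on the minus strand, which 34% and 30.5% of promoters held. Both genes held TATAA, as did 24% of promoters, at 40 bases before the start site of Acta2 and at 82 before that of Vim, where it overlaps its own reverse complement. These matches describe the letters and do not show that a factor was bound there.

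The total counts lay between 34546567 and 47181784 per library, and 15122 gene IDs had enough counts to be tested. The 3 members passed this filter with a wide margin, since the smallest count of any of them in any library was 8801, so that counting error is small beside the differences between tendons. Ranked by mean level in CPM (counts relative to the library total, scaled by TMM and not by gene length), Vim stood at place 40, Tagln at 173 and Acta2 at 396 of the genes tested. No pair of the 6 libraries was a duplicate. The IDs of the table could not be paired with gene symbols (0 of them matched the reference), so markers of tenocytes, pericytes, leukocytes and skeletal muscle were not examined here, and their part in the levels of these 3 genes was not tested.

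The comparison of the celecoxib + lactoferrin treatment group with the tendon injury model group asks whether treated tendons carried less of the contractile program on day 14. Acta2 and Tagln had somewhat lower mean levels in treated tendons and Vim had nearly the same mean level, but the groups overlapped in each gene and none of the 3 passed the test. In edgeR's quasi-likelihood test with Benjamini-Hochberg adjustment, 0 of the 3 had an adjusted p-value under 0.05, against 0.00661% of the genes tested (1 gene). At an unadjusted p-value under 0.05 the count was also 0 of 3, against 2.61% of the genes tested. DESeq2 also gave 0 of 3 at either threshold, against 0.164% of its genes with an adjusted p-value under 0.05 (26 of 15890) and 3.21% with an unadjusted one (578 of 17992). Groups without overlap were found for 0 of the 3 members, against 7.8% of the genes tested. In bulk tissue, fewer cells of a type and less RNA per cell cannot be told apart.

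Acta2 was measured at 306, 270 and 313 CPM in injury model replicates 1, 2 and 3. In celecoxib + lactoferrin replicates 1, 2 and 3 it was measured at 257, 302 and 208 CPM. Replicates 1 and 3 of the treated group lay below every injury model library, whereas treated replicate 2 lay within the injury model range. The mean of the injury model libraries was 296 ± 23.1 CPM (SD, n = 3), and that of the treated libraries was 256 ± 46.7 CPM (SD, n = 3). The log2 fold change was -0.21 (standard error 0.20, 95% interval -0.66 to 0.24, edgeR, adjusted p = 0.998), or 0.864 times the injury model level with an interval from 0.631 to 1.18 times. Of the genes tested, 52.7% had a smaller log2 fold change in size, so the difference of Acta2 was near the middle of all genes. The value rested partly on single libraries. It was -0.085 without celecoxib + lactoferrin replicate 3, the lowest library, and -0.35 without replicate 2 of that group, the highest of the treated libraries (unadjusted p = 0.0726 in edgeR, which did not pass after adjustment). Acta2 shares long stretches of its coding sequence with the other muscle actins, and how reads that match several genes were counted is not given in the sources used here.

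Tagln was measured at 611, 418 and 497 CPM in injury model replicates 1, 2 and 3, and at 452, 503 and 378 CPM in celecoxib + lactoferrin replicates 1, 2 and 3. Injury model replicate 1 stood above the other libraries, and the remaining 2 libraries of that group lay within the range of the treated ones. The means were 509 ± 97.4 CPM (SD, n = 3) and 444 ± 63.0 CPM (SD, n = 3). The log2 fold change of -0.20 (standard error 0.22, 95% interval -0.70 to 0.31, edgeR, adjusted p = 0.998) corresponds to 0.873 times the injury model level, with an interval from 0.615 to 1.24 times. The log2 fold change was -0.043 once injury model replicate 1 was left out and -0.094 once celecoxib + lactoferrin replicate 3 was. Without injury model replicate 2 it was -0.32 (adjusted p = 0.999, edgeR). As with Acta2, the lowest library of all 6 was celecoxib + lactoferrin replicate 3.

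Vim was measured at 2302, 1658 and 2335 CPM in injury model replicates 1, 2 and 3, and at 2408, 2144 and 1718 CPM in celecoxib + lactoferrin replicates 1, 2 and 3. One library in each group was low and the others lay close together, so the groups covered nearly the same range. The means were 2098 ± 382 CPM (SD, n = 3) and 2090 ± 348 CPM (SD, n = 3). The log2 fold change was -0.0057 (standard error 0.24, 95% interval -0.56 to 0.55, edgeR, adjusted p = 0.999). This interval still allows a level between 0.678 and 1.46 times that of the injury model group, so a moderate change in either direction was not detectable with 3 libraries a group. Only 1.61% of the genes tested had a smaller log2 fold change in size. The value turned to 0.051 when libraries were scaled by their size alone, to 0.066 or 0.076 when injury model replicate 1 or 3 was left out, and to 0.12 when celecoxib + lactoferrin replicate 3 was. It was -0.15 with injury model replicate 2 left out and -0.12 with celecoxib + lactoferrin replicate 1 left out or with a term for library depth. The lowest adjusted p-value of these edgeR fits was 0.955.

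**Figure D1:**
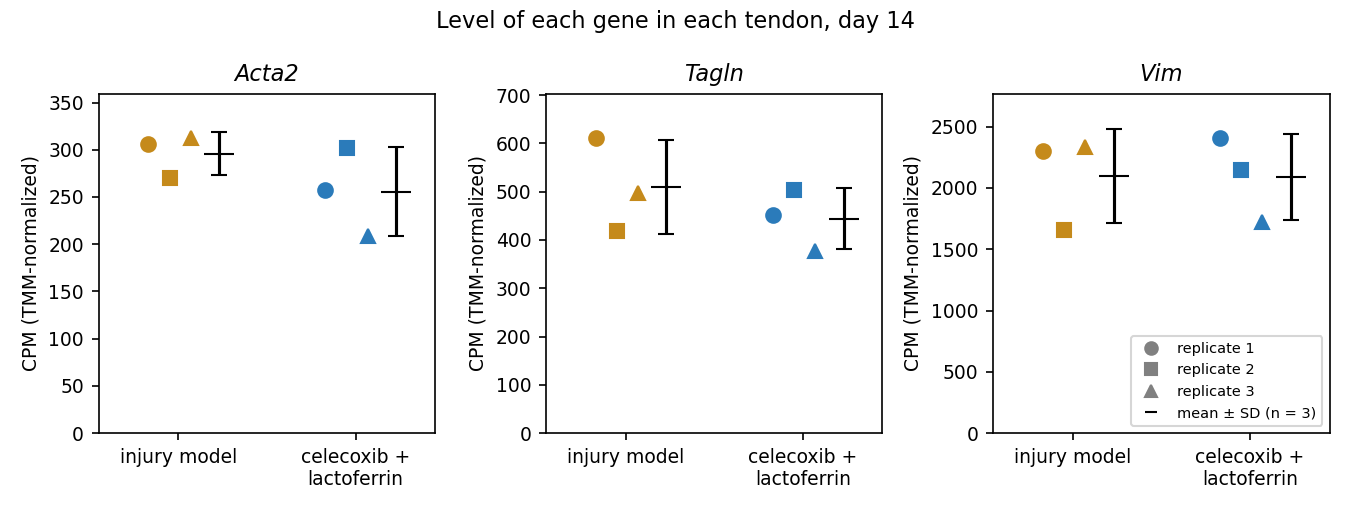
Level of Acta2, Tagln and Vim (CPM, TMM-normalized, vertical axes from 0) in each of the 6 libraries, with injury model libraries in ochre and celecoxib + lactoferrin libraries in blue, marker shape giving the replicate number and black bars the mean ± SD (n = 3). The groups overlap in each gene, and celecoxib + lactoferrin replicate 3 is the lowest library for Acta2 (208 CPM) and Tagln (378 CPM).

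The 2 libraries with the lowest Vim, injury model replicate 2 and celecoxib + lactoferrin replicate 3, were also the 2 lowest for Tagln. These libraries had the 2 highest TMM factors, 1.07 and 1.09, where a higher factor lowers the CPM. Their Vim was also the lowest as a plain share of all counts, at 0.177% and 0.187%, against 0.209% to 0.234% in the other 4 libraries. For Tagln, the share in celecoxib + lactoferrin replicate 3 was the lowest of the 6 (0.0411%). That of injury model replicate 2 was 0.0445%, just above the 0.0439% of celecoxib + lactoferrin replicate 1, so the order of these 2 depended on the scaling. What these libraries share was not tested.

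The members varied between libraries of a group about as much as other abundant genes or less. The SD of log2 CPM within groups was 0.21 for Acta2, 0.24 for Tagln and 0.26 for Vim, against a median of 0.32 over the genes tested and 0.26 over the 1513 most abundant ones. Within those 1513 genes, 62.5% had a smaller log2 fold change in size than Acta2, 59.3% than Tagln and 2.31% than Vim. Over the genes tested, the median log2 fold change was 0.0067, so that the values of Acta2 and Tagln lay below it and that of Vim close to it.

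**Figure D2:**
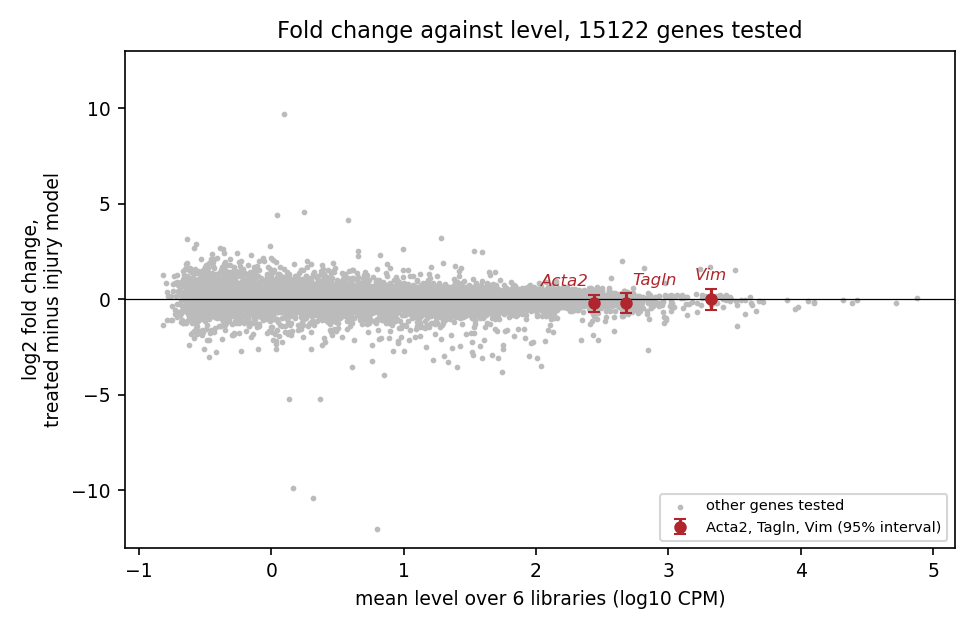
Log2 fold change (treated minus injury model, edgeR) against the mean level over the 6 libraries (log10 CPM), with the 15122 genes tested in grey and Acta2, Tagln and Vim in red with their 95% intervals. All 3 intervals span 0, with point estimates of -0.21, -0.20 and -0.0057, and the members lie at the abundant end of the genes tested.

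A ratio of 2 genes within a library depends on neither depth nor scaling between libraries, and it asks whether the contractile genes differed from the general mesenchymal filament gene. The counts were not divided by gene length, so only differences between libraries in a ratio can be read. The log2 ratio of Acta2 to Vim was -2.91, -2.62 and -2.90 in injury model replicates 1, 2 and 3. It was -3.23, -2.83 and -3.04 in celecoxib + lactoferrin replicates 1, 2 and 3. Treated replicates 1 and 3 lay below every injury model library and treated replicate 2 above 2 of them. The means were -2.81 ± 0.17 (SD, n = 3) and -3.03 ± 0.20 (SD, n = 3), a difference of -0.22 (two-sided exact permutation test, p = 0.3, adjusted over the 3 ratios 0.45). With 3 libraries against 3 this test cannot go below 0.1.

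The log2 ratio of Tagln to Vim was -1.91, -1.99 and -2.23 in injury model replicates 1, 2 and 3, and -2.41, -2.09 and -2.19 in celecoxib + lactoferrin replicates 1, 2 and 3. Injury model replicates 1 and 2 lay above every treated library, and injury model replicate 3 lay among them. The means were -2.04 ± 0.17 (SD, n = 3) and -2.23 ± 0.17 (SD, n = 3), a difference of -0.19 (two-sided exact permutation test, p = 0.3, adjusted 0.45). Both ratios were lowest in celecoxib + lactoferrin replicate 1, which had the highest Vim of the 6 libraries. Without that library the differences were -0.12 for Acta2 to Vim and -0.094 for Tagln to Vim.

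The log2 ratio of Acta2 to Tagln compares both contractile genes with each other. It equals the log2 ratio of Acta2 to Vim minus that of Tagln to Vim. The 3 ratios are therefore not independent comparisons, and both ratios to Vim share a denominator. The log2 ratio of Acta2 to Tagln was -1.0, -0.63 and -0.67 in injury model replicates 1, 2 and 3. In celecoxib + lactoferrin replicates 1, 2 and 3 it was -0.81, -0.74 and -0.86. The treated libraries lay inside the range of the injury model libraries, of which replicate 1 was the lowest of the 6. The means of -0.77 ± 0.20 (SD, n = 3) and -0.80 ± 0.061 (SD, n = 3) differed by -0.036 (two-sided exact permutation test, p = 0.8, adjusted 0.8). This difference was 0.032 and 0.013 with injury model replicates 2 and 3 left out in turn, -0.15 with replicate 1 of that group left out, and -0.14 between medians. Its size also depended on the treated libraries, at -0.0084 with replicate 3 left out and -0.069 with replicate 2 left out. Over the 6 libraries this ratio spanned a factor of 1.29, against 1.52 for Acta2 to Vim and 1.42 for Tagln to Vim.

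**Figure D3:**
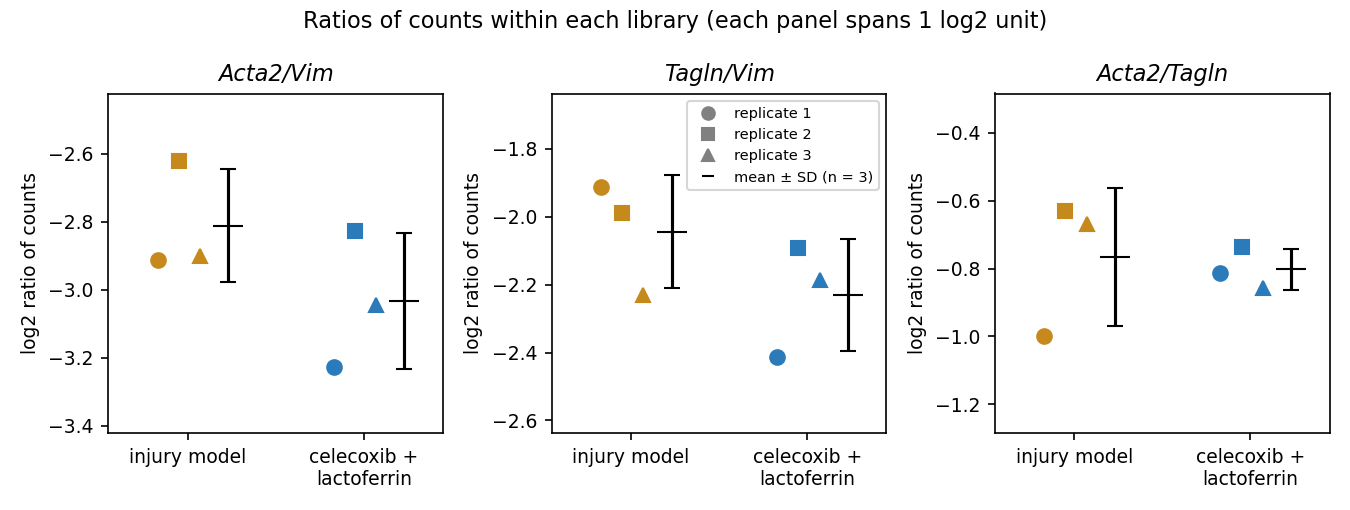
Log2 ratios of counts within each library for Acta2 to Vim, Tagln to Vim and Acta2 to Tagln, each panel spanning 1 log2 unit, with marker shape giving the replicate and black bars the mean ± SD (n = 3). The treated minus injury model differences are -0.22 and -0.19 in the ratios to Vim and -0.036 in the ratio of Acta2 to Tagln, and the groups overlap in each panel.

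Whether the members moved together was examined over the 6 libraries, with 3 pairs of genes and exact two-sided permutation tests over all pairings. Both groups were pooled and their means were not removed. Each r therefore holds any difference between the groups as well as variation between tendons of a group. Acta2 and Tagln had the closest relation, with Pearson's r = 0.83 (exact p = 0.0389, adjusted over the 3 pairs 0.117) and Spearman's rho = 0.77 (exact p = 0.103, adjusted 0.308). Without the 2 libraries farthest from the median of Acta2, celecoxib + lactoferrin replicates 1 and 3, r was 0.75. Tagln and Vim had r = 0.72 (exact p = 0.128, adjusted 0.192) and rho = 0.43 (exact p = 0.419, adjusted 0.564), and r was 0.68 without injury model replicate 1 and celecoxib + lactoferrin replicate 3. Acta2 and Vim had r = 0.60 (exact p = 0.213, adjusted 0.213) and rho = 0.31 (exact p = 0.564, adjusted 0.564). That r was 0.99 with celecoxib + lactoferrin replicates 1 and 3 both left out and 0.29 with replicate 3 alone left out, so it depended on which libraries were used. No pair passed the test after adjustment.

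All 3 genes of a library are divided by the same factor, which moves them in the same direction. With libraries scaled by their size alone, r was 0.65 for Acta2 and Tagln, 0.35 for Tagln and Vim and 0.22 for Acta2 and Vim. The order of the pairs was the same under both scalings, and each r was smaller without the TMM factors. The libraries fall into 3 deeper and 3 shallower ones that cross the treatment groups, and 3 libraries are too few for an r within either.

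**Figure D4:**
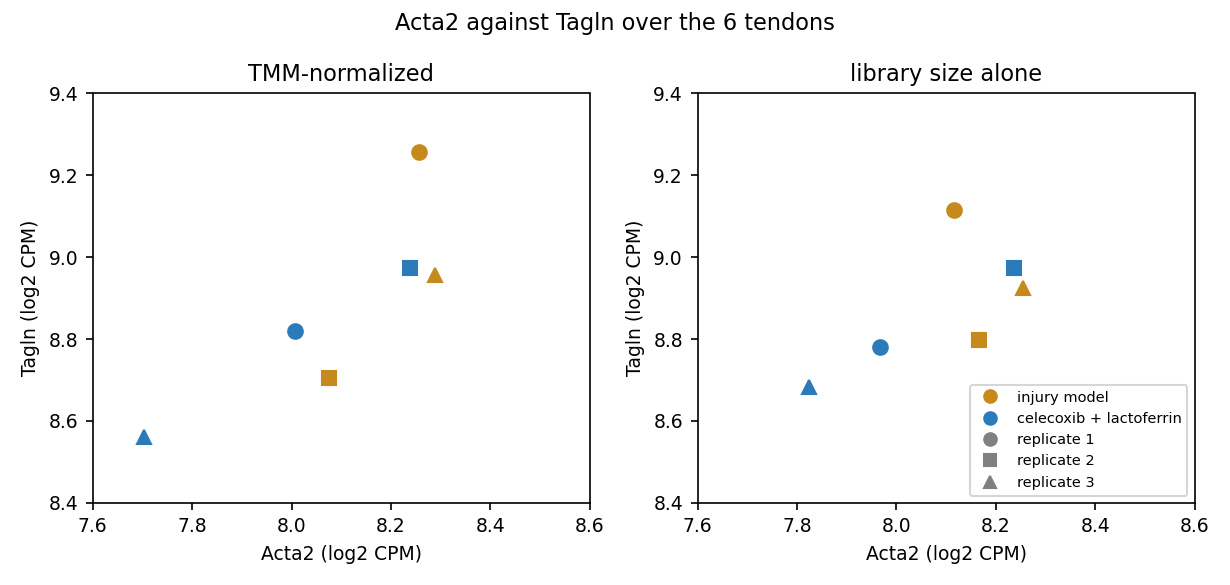
Tagln against Acta2 (both log2 CPM) over the 6 libraries, TMM-normalized on the left and scaled by library size alone on the right, with injury model libraries in ochre, celecoxib + lactoferrin libraries in blue and marker shape giving the replicate. Pearson's r is 0.83 on the left and 0.65 on the right, and injury model replicate 1 has the highest Tagln in both.

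The genes most like each member were sought by Pearson's r of log2 CPM over the 6 libraries among 8971 other genes with a mean of at least 10 CPM. These values are a description with no test, since with 6 libraries many genes reach a high r by selection. Tagln stood at place 161 in likeness to Acta2, and Vim at place 905. For Tagln, Acta2 stood at place 335. For Vim, Tagln stood at place 867 and Acta2 at place 1494. An r above 0.9 was reached by 51 genes with Acta2, 144 with Tagln and 125 with Vim, so neither of the other members was among the closest to any of the 3.

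The closest gene to Acta2 was ENSRNOG00000026048 (r = 0.98, rho = 0.83, and r = 0.89 by library size alone), with a log2 fold change of -0.13 (adjusted p = 0.998, edgeR). The closest to Tagln was ENSRNOG00000006052 (r = 0.997, rho = 1, and r = 0.98 by library size alone), with a log2 fold change of -0.31 (adjusted p = 0.998, edgeR). The closest to Vim was ENSRNOG00000019574 (r = 0.99, rho = 0.94, and r = 0.98 by library size alone). The fourth closest to Vim, ENSRNOG00000003897, was the most abundant gene of the table by mean CPM (r = 0.99, rho = 1, and r = 0.98 by library size alone), with a log2 fold change of 0.045 (adjusted p = 0.998, edgeR). The deposited table does not pair these IDs with names. Likeness could depend on the scaling: the r of the third closest gene to Tagln went from 0.99 to -0.10 with library size alone.

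**Figure D5:**
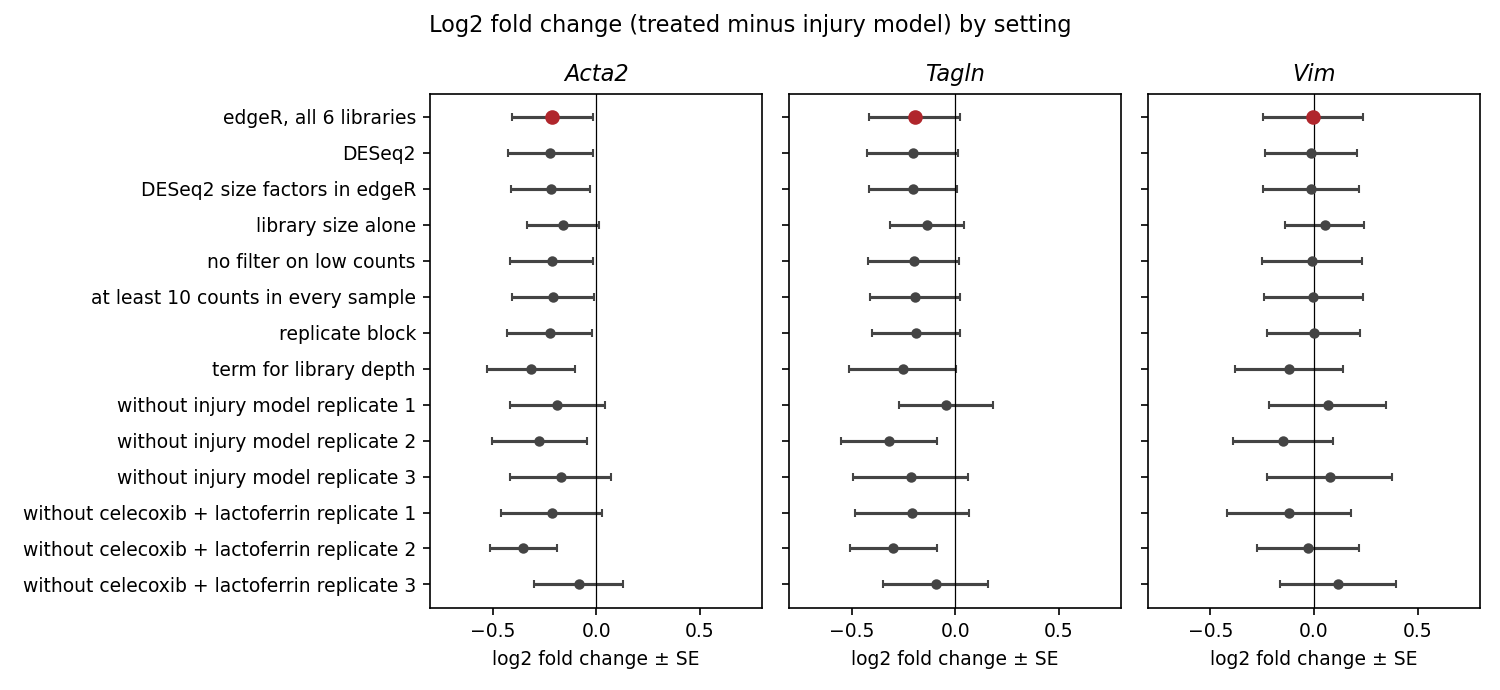
Log2 fold change ± standard error (treated minus injury model) of Acta2, Tagln and Vim under edgeR with all 6 libraries (red, top) and under each other setting (grey), with 0 as the vertical line. Acta2 lies between -0.35 and -0.085 and Tagln between -0.32 and -0.043 under each setting shown, whereas Vim lies on both sides of 0, from -0.15 to 0.12.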

How the data were processed

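Total RNA of tendons was sequenced on an Illumina platform, reads of low quality were removed, and HISAT2 aligned the rest to the rat genome (Ensembl Rnor_6.0). The submitters' processing notes name a human build (GRCh38.p13) instead, whereas the gene IDs are rat IDs. The values the authors deposited are raw, unnormalized counts, 1 row per Ensembl gene ID. The counting tool and its strand setting are not given in the sources used here.

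Columns were matched to samples by group and replicate number. In R 4.3.3, edgeR 4.0.16 (TMM, filterByExpr by group, robust quasi-likelihood fit, Benjamini-Hochberg over the 15122 genes tested) gave the main test, with standard errors and 95% intervals taken from its F statistic and degrees of freedom, and DESeq2 1.42.0 an alternative. For log2 CPM the prior count was 2. The edgeR test was checked on simulated counts, in which the planted changes were larger than those of the 3 members. That check does not bear on changes of the members' size. The members, lists and tests were chosen with earlier results of these data known. The named genes were the 3 members and, for each, the 5 genes most like it, with at most 2 IDs a direction for genes without a symbol. Gene lists of the contractile apparatus, its regulators and cell types could not be used, because the reference matched 0 of the 22250 IDs. The pairing of IDs with the names Acta2, Tagln and Vim was given with the choice of members and was not checked here. Promoters came from RefSeq (GRCr8), of which 33465 of 33469 were used. Alternatives are given in the closing section.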

Additional observations from a re-analysis of the deposited data

How the results depend on the processing

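The log2 fold changes of Acta2 and Tagln kept their sign under each of the 13 alternatives. Among these were DESeq2, other scalings and filters, a term for library depth, a replicate block and each library left out in turn. Both genes failed the test after adjustment throughout. The term for library depth gave -0.31 for Acta2 and -0.25 for Tagln, against -0.21 and -0.20 without it (edgeR). With each library left out, Acta2 lay between -0.35 and -0.085 and Tagln between -0.32 and -0.043. Vim turned positive with library size alone (0.051) and in 3 fits that left out 1 library, namely injury model replicate 1 (0.066) or 3 (0.076) or celecoxib + lactoferrin replicate 3 (0.12), and was -0.15 without injury model replicate 2. The lowest adjusted p-value over these alternatives, from edgeR and DESeq2, was 0.956 for Acta2, 0.959 for Tagln and 0.955 for Vim.

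The replicate block gave -0.22 for Acta2, -0.19 for Tagln and -0.0018 for Vim, and 0 genes with an adjusted p-value under 0.05 beside 326 at an unadjusted one, against 1 and 395 without it. The correlation of deviations lay from -0.27 to 0.057 between same-numbered libraries and from -0.31 to 0.30 between libraries of other numbers. With 3 libraries a group, these values cannot decide whether the numbers pair the tendons.

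Genes with an adjusted p-value under 0.05 numbered 26 with DESeq2, 3 without a filter and 0 with at least 10 counts in every sample (407 at an unadjusted one), and from 1 to 9 with each library left out. Those with an unadjusted one numbered 223 with the depth term and between 226, with injury model replicate 1 left out, and 890, with celecoxib + lactoferrin replicate 3 left out. The causes were not tested.

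The difference in the log2 ratio of Acta2 to Tagln turned from -0.036 to 0.032 without injury model replicate 2 and to 0.013 without injury model replicate 3, and lay between -0.15 and 0.032 with each library left out. The ratios to Vim kept their sign, from -0.32 to -0.12 for Acta2 and from -0.28 to -0.094 for Tagln. With each library left out, the correlation lay between 0.29 and 0.79 for Acta2 and Vim, 0.56 and 0.87 for Tagln and Vim, and 0.72 and 0.93 for Acta2 and Tagln. The difference of medians kept the sign of each ratio. Alternatives for the gene lists were not run for want of symbols.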
